A study of Mus musculus with 2 samples.

Results

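OX40, GITR, 4-1BB and CD27 are receptors of the tumour necrosis factor (TNF) receptor superfamily that T cells carry on their surface, and they are encoded by Tnfrsf4, Tnfrsf18, Tnfrsf9 and Cd27. With Traf1, which encodes an adaptor protein recruited to such receptors inside the cell, they form a set of 5 genes chosen by symbol from the 32285 genes measured. All 5 were found in the gene list. Their transcripts were followed across thymic T cells of the regulatory T cell (Treg) lineage by the detection of Foxp3 and Il2ra, by cell state and by genotype.

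These receptors bind ligands of the TNF family, which antigen-presenting cells display, and pass the signal through TRAF adaptors to the NF-kB transcription factors, which raise genes of cell survival and proliferation. In the thymus, developing CD4 T cells that meet self antigen strongly can turn into Tregs. They pass through precursors that express either the Treg transcription factor Foxp3 or CD25, the product of Il2ra and a chain of the receptor for IL-2, but not yet both. OX40 and GITR are known to rise on such precursors and to aid their conversion, and 4-1BB is widely used as a sign of recent T cell receptor engagement.

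The cells came from 1 C57BL/6 mouse with the Foxp3eGFP reporter and 1 mouse that carried the same reporter and lacked Lta (Foxp3eGFPxLta-/-). The reporter makes cells that express Foxp3 fluoresce, so that both mice, the control included, carry a modified Foxp3 locus, and Lta encodes lymphotoxin alpha, another ligand of the TNF family. After depletion of CD8 and CD11c positive cells, live CCR6- CD3e+ CD4+ CD8- thymocytes that stained for CD25, carried eGFP, or had both were sorted. Cells of each mouse received their own antibody hashtag, and both were captured in 1 well for droplet 3' RNA sequencing.

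The 4638 cells kept had a median of 5555 unique molecular identifiers (UMIs, 1 per captured RNA molecule). Hashtags assigned 2209 cells with 15010916 UMIs to the Foxp3eGFP mouse and 2244 cells with 14054827 UMIs to the Lta-/- mouse, and 185 cells (3.99%) carried both hashtags. Lta itself had 509 UMIs in the Foxp3eGFP cells and 72 in the Lta-/- cells. Whether the counted end of the Lta transcript lies in the deleted part is not given in the sources used here. Of the genes behind the sort, Cd3e was detected in 95.2% of cells, Cd4 in 60.1% and Ccr6 in 2.50%. Of the CD8 genes, Cd8a was detected in 2.72% of cells and Cd8b1 in 14.8%. A Foxp3 or Il2ra UMI was found in 33.7% of cells, although every cell had been sorted on CD25 or eGFP. Lack of a UMI is therefore not read as lack of the protein. Whether missed transcripts or cells carried over in the sort make up this gap was not tested. With 1 capture and 1 mouse per genotype there are no replicates and no test was possible. All intervals in parentheses are exact 95% intervals and cover counting error only.

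Tnfrsf4 and Tnfrsf18 are neighbours on mouse chromosome 4 (GRCm38), at chr4:156013595-156016613 and chr4:156026322-156028894, with 9708 bases between them. Tnfrsf9 lies at chr4:150920155-150946104 on the same chromosome. Cd27 lies at chr6:125232620-125237136 and Traf1 at chr2:34941750-34961812. In the RefSeq gene table, the span of Tnfrsf4 overlaps that of Sdf4 (7013 UMIs) and the span of Tnfrsf18 that of Gm16008 (15 UMIs). The strand setting of the counting is not given in the sources used here, so reads from overlapping stretches cannot be told apart.

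The promoter windows of the receptors are shown because NF-kB, STAT5, AP-1 and NFAT, the factors downstream of these receptors, of the IL-2 receptor and of the T cell receptor, have known binding motifs that can be looked for in them. RefSeq (GRCm38) gave a start for 5 of 5 genes, with 2 starts for Tnfrsf9. The 250 bases before the Tnfrsf9 and Tnfrsf18 starts are printed 5' to 3' on the gene's strand, with the matches to the NF-kB, STAT and AP-1 motifs in capitals. The first Tnfrsf9 window is chr4:150919905-150920154 (plus strand), the second is chr4:150927749-150927998 (plus strand, within the Tnfrsf9 span), and the Tnfrsf18 window is chr4:156026072-156026321 (plus strand, overlapping Gm16008).
Tnfrsf9, first start: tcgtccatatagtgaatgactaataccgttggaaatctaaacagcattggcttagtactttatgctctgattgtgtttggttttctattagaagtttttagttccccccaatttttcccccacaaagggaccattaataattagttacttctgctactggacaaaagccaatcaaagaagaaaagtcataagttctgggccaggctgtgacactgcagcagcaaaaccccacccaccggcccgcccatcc
Tnfrsf9, second start: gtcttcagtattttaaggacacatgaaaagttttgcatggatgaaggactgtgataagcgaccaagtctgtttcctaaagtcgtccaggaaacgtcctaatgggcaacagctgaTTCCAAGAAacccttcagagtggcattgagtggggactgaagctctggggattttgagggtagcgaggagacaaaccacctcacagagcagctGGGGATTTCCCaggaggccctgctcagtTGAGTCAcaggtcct
Tnfrsf18: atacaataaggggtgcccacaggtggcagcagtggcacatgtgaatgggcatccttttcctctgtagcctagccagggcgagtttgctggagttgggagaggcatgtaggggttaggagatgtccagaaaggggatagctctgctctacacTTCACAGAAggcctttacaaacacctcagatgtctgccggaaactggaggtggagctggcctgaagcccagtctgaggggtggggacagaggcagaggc
The window before the second Tnfrsf9 start held 2 overlapping NF-kB matches, the first beginning 43 bases before the start, a STAT match (TTCNNNGAA) at 136 bases and an AP-1 match (TGANTCA) at 15 bases. The first Tnfrsf9 window held none of these 3 motifs. Tnfrsf18 held 1 STAT match, at 99 bases, and no match to these 3 motifs was found in the Tnfrsf4, Cd27 and Traf1 windows. On either strand, the NF-kB consensus occurs in 7.25% of 32851 RefSeq promoter windows of this length, the STAT motif in 7.02% and the AP-1 motif in 6.75%. The NFAT core GGAAA, not marked in capitals, was in all 6 windows of the 5 genes and in 55.6% of all windows. A match is a run of letters and was not tested as a binding site.

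The 5 transcripts differed in how they were spread over cells. Levels are given as UMIs per 1000000 UMIs summed over a group of cells (CPM) and are compared between groups of cells for 1 gene, not between genes. Tnfrsf4 had 14521 UMIs (466 CPM, 459 to 474), in 63.2% of cells, and up to 61 in 1 cell. Tnfrsf18 had 9462 UMIs in 67.8% of cells and Tnfrsf9 had 5858 UMIs in only 33.5%. Cd27, a receptor that most thymocytes and naive T cells carry, had 10148 UMIs in 81.9% of cells, and Traf1 had 2063 in 28.7%. To compare shares at 1 depth, each cell was thinned to 3000 UMIs, which left out 313 shallower cells and 4325 remained. The share with a UMI was then 50.9% for Tnfrsf4, 50.5% for Tnfrsf18, 25.5% for Tnfrsf9, 62.3% for Cd27 and 18.3% for Traf1. The tenth of thinned cells with the most Tnfrsf9 UMIs held 66.6% of them, against 64.8% for Traf1, 50.2% for Tnfrsf4, 43.1% for Tnfrsf18 and 32.8% for Cd27. A low mean count also raises this share, and the thinned means were 0.561 for Tnfrsf9 and 0.237 for Traf1. The variance over the mean was 4.35 for Tnfrsf4, 2.92 for Tnfrsf9, 2.10 for Tnfrsf18, 1.38 for Traf1 and 1.23 for Cd27, so that Cd27 was the most evenly spread of the 5.

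Cells that should lack these transcripts were too few to set a background from free RNA. Only 4 cells had at least 10 UMIs of myeloid genes and no Cd3 UMI, and they held 0 UMIs of each of the 5 genes among 14531 UMIs, at a median of 2593.5 per cell against 5555 in all cells. The lowest thinned share in any cluster of over 100 cells bounds the background: 22.3% for Tnfrsf4, 24.1% for Tnfrsf18, 41.2% for Cd27 and 3.68% for Traf1 in cluster 3, and 6.87% for Tnfrsf9 in cluster 2. Shares at these levels are not read as expression.

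Cells were first classed by the 2 transcripts of the sort: both Foxp3 and Il2ra detected (426 cells), Il2ra only (615), Foxp3 only (524) and neither (3073), with median UMIs of 5770.5, 5915, 4743 and 5565. Tnfrsf4 and Tnfrsf18 were high wherever Il2ra was detected, intermediate with Foxp3 alone and lowest with neither, while Tnfrsf9 was high in the Il2ra only class alone. Cd27 hardly varied. The class comparisons share cells, since each class enters several of them, and a gene counts as higher or lower where its ratio is at least 1.5-fold with at least 50 UMIs in the compared classes together.

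Tnfrsf4, which encodes OX40, reached 1091 CPM in the Il2ra only cells of the Foxp3eGFP mouse and 1065 in those of the Lta-/- mouse. With both transcripts it was at 972 and 908 CPM, with Foxp3 only at 503 and 432, and with neither at 309 and 245. The order of the 4 classes was the same in the 2 mice. Pooled, the level was 904 CPM (870 to 939) with both transcripts, 1063 (1032 to 1094) with Il2ra only, 457 (433 to 482) with Foxp3 only and 282 (275 to 289) with neither, and no 2 of these intervals overlap. Relative to cells with both transcripts, the log2 ratio was 0.23 (0.16 to 0.30) with Il2ra only, -0.98 (-1.08 to -0.89) with Foxp3 only and -1.68 with neither. Among 6047 genes with at least 100 UMIs, the ratio of Foxp3 only over both was the 47th lowest. The thinned share of cells with a Tnfrsf4 UMI ran from 78.6% with both and 74.2% with Il2ra only to 58.3% with Foxp3 only and 40.9% with neither (unthinned 90.4%, 87.5%, 70.2% and 53.3%).

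Tnfrsf18, the gene of GITR, followed the same order except that Il2ra only cells did not exceed cells with both. In the Foxp3eGFP mouse it was at 591 CPM with both transcripts, 564 with Il2ra only, 401 with Foxp3 only and 222 with neither, and in the Lta-/- mouse at 597, 568, 371 and 184 CPM. The first pair of classes had overlapping intervals in each mouse. The log2 ratio to cells with both was -0.087 for Il2ra only, -0.63 for Foxp3 only and -1.54 for neither. Over the pooled cells Tnfrsf18 was thus at least 1.5-fold lower in the Foxp3 only cells and in the cells with neither transcript, as Tnfrsf4 was. For Foxp3 only over both it lay just short of 1.5-fold in the cells of the Foxp3eGFP mouse (-0.56) and when 2 UMIs were needed for a class (-0.58).

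Tnfrsf9, the gene of 4-1BB, was at 396 CPM (370 to 422) in the Il2ra only cells of the Foxp3eGFP mouse and 385 (356 to 416) in those of the Lta-/- mouse. Cells with both transcripts stood at 153 and 132 CPM, Foxp3 only cells at 138 and 115, and cells with neither at 173 and 148. Il2ra only cells were thus the high class in each mouse, and the other 3 classes lay close together. The pooled log2 ratio of Il2ra only over both was 1.43 (1.28 to 1.59), the 32nd highest of 6719 genes with at least 100 UMIs, and Tnfrsf9 was also at least 1.5-fold above the Foxp3 only cells. For Foxp3 only over both it was -0.062, with overlapping intervals (134 CPM, 121 to 148, against 140, 127 to 154). A Tnfrsf9 UMI was found after thinning in 39.9% of Il2ra only cells, 26.4% with both, 21.9% with Foxp3 only and 23.1% with neither (unthinned 51.9%, 39.0%, 26.7% and 30.2%).

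Cd27 stayed between 316 CPM with Il2ra only or neither and 393 CPM with Foxp3 only, and its log2 ratios to cells with both were -0.12, 0.19 and -0.12 for Il2ra only, Foxp3 only and neither. Traf1, whose product binds TRAF2 at these receptors, had 128 CPM with both transcripts, 94.1 with Il2ra only, 98.1 with Foxp3 only and 47.3 with neither. In each mouse Traf1 was lowest in the cells with neither transcript (44.0 CPM in Foxp3eGFP, 51.1 in Lta-/-) and highest in the cells with both (117 and 134). Its log2 ratio of neither over both was -1.43, the 93rd lowest of 9379 genes.

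**Figure D1:**
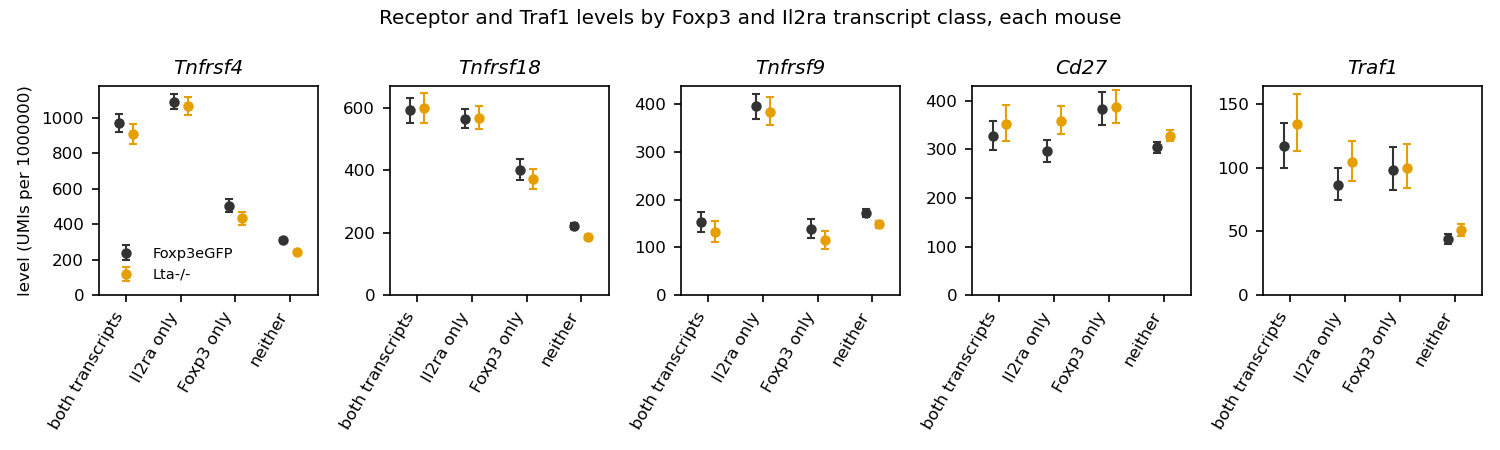
Level of each of the 5 genes (CPM, linear axis) in cells with both Foxp3 and Il2ra UMIs, Il2ra only, Foxp3 only or neither, with 1 point per mouse and exact 95% intervals for counting error. Tnfrsf4 and Tnfrsf18 fall from the Il2ra-detected classes to the cells with neither, Tnfrsf9 stands out in Il2ra only cells (396 and 385 CPM), and Cd27 stays nearly level.

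Read against all genes, 1 of 5 members was higher with Il2ra only than with both (Tnfrsf9), where 9.66% of 8438 genes were, and 0 were lower, where 4.88% were. With Foxp3 only, 2 of 5 were lower than with both (1 of 5 in Foxp3eGFP cells alone), where 3.82% of all genes were, and 0 higher (3.68%). With neither, 3 of 5 were lower than with both (7.13%) and 0 higher (13.6%). For Il2ra only over Foxp3 only, 2 members were higher, Tnfrsf4 (1.22) and Tnfrsf9, against 12.0% of all genes, and 0 were lower (7.43%). Il2ra only over neither gave 4 of 5 higher (6.14%) and 0 lower (8.33%), with log2 ratios of 1.91 for Tnfrsf4, 1.45 for Tnfrsf18, 1.21 for Tnfrsf9 and 0.99 for Traf1. Foxp3 only over neither gave 3 of 5 higher (7.17%) and 0 lower (13.3%): Traf1 at 1.05, Tnfrsf18 at 0.90 and Tnfrsf4 at 0.70. The median log2 ratio over the 5 members was 1.21 for Il2ra only over neither, beside -0.032 over all genes, and -1.43 for neither over both, beside 0.085.

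Markers of other cells moved with these classes. In cells with neither transcript, the 12 of 12 measured proliferation markers were higher than with both (summed 3035 against 699 CPM). The summed levels of 8 B cell and 8 plasma cell markers, lists that share a gene, were 193 against 10.9 and 757 against 138 CPM. Of 3 measured B cell markers 2 were higher and 1 lower, and of 7 measured plasma cell markers 5 were higher and 1 lower. The summed myeloid or dendritic markers were at 308 against 139 CPM, with 5 of 6 measured higher and 0 lower. In Il2ra only cells, 10 of 12 proliferation markers were higher than with both (1479 against 699 CPM). The summed gamma-delta T and NK markers were 101 against 35.3 (3 of 4 measured higher) and 92.9 against 17.7 CPM (2 of 3). In Foxp3 only cells, 10 of 13 agonist-signalled precursor markers were lower than with both (381 against 980 CPM). Innate-like T markers were at 170 against 459 CPM, with 3 of 4 measured lower and 1 higher. Myeloid or dendritic markers were at 311 against 139 CPM there (2 of 3 measured higher), and proliferation markers at 985 against 699, with 4 of 12 higher. B cell markers were at 37.8 against 10.9 CPM, with only 1 of 8 measured. The shares of all genes past 1.5-fold in these comparisons are those given above. Cluster 6 held effector, innate-like, myeloid and mature Treg markers. Without it and cluster 3, led by proliferation genes, the log2 ratios of neither over both were -1.47 for Tnfrsf4, -1.36 for Tnfrsf18, 0.53 for Tnfrsf9 and -1.35 for Traf1. For Tnfrsf9 the ratio of Il2ra only over both was then 1.54, and for Foxp3 only over both the ratios were -1.04 for Tnfrsf4 and -0.66 for Tnfrsf18. Clusters 5 and 9, which held the highest summed B cell and plasma cell markers, were not left out. The part of the other markers in the class ratios was not tested.

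The 2 sort transcripts were next read as a scale, in thinned cells. Tnfrsf4 was at 373 CPM in cells with 0 Il2ra UMIs, 1092 with 1, 1141 with 2 and 1317 with 3 or more (3605, 432, 147 and 141 cells). Tnfrsf18 took the values 278, 577, 637 and 752 CPM over the same steps. For both receptors the large step lay between 0 and 1 UMI, and the intervals at 3 or more UMIs (1210 to 1431 and 671 to 839) stood above those at 1 (1036 to 1150 and 537 to 620). Tnfrsf9 did not keep that order: it was at 170 CPM with 0 Il2ra UMIs, 321 with 1, 240 with 2 and 165 (129 to 209) with 3 or more, so that the cells richest in Il2ra were back at the level of those with none. Against Foxp3 UMIs, Tnfrsf9 had 195, 148, 110 and 88.9 CPM at 0, 1, 2 and 3 or more, the last in 45 cells. Tnfrsf4 had 472, 683, 648 and 881 CPM and Tnfrsf18 had 308, 544, 412 and 504 CPM over those steps. Traf1 was at 69.9 CPM with 0 Il2ra UMIs and at 120, 120 and 147 with more, and Cd27 stayed between 348 and 364.

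**Figure D2:**
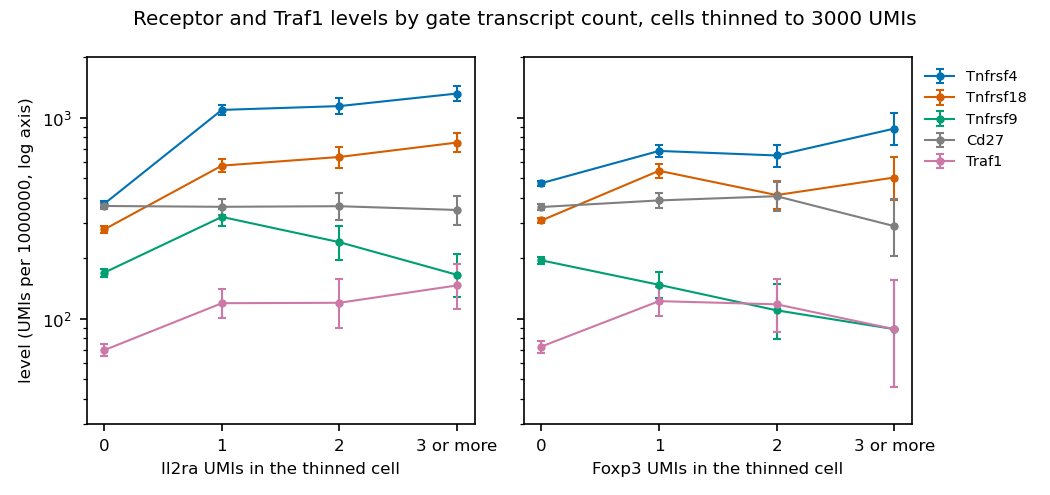
Level of each gene (CPM, log axis) in cells thinned to 3000 UMIs, by the number of Il2ra UMIs and of Foxp3 UMIs in the cell, with exact 95% intervals. Tnfrsf4 and Tnfrsf18 are higher with more Il2ra UMIs, while Tnfrsf9 is highest at 1 Il2ra UMI (321 CPM) and lower with more Foxp3 UMIs.

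Cell states were taken from clusters made without the 5 genes, Foxp3 or Il2ra. In cluster 7 (278 cells), 12 of 13 agonist-signalled precursor markers and 9 of 11 mature Treg markers exceeded the other cells by 1.5-fold or more. It was led by Cd83, Nr4a3 and Egr3, and 84 of its cells had both Foxp3 and Il2ra UMIs. It was therefore taken as mixed, agonist-signalled and mature Treg-like, and not as a precursor stage. Of 7 measured dissociation stress markers, 4 were also higher there (summed 1111 CPM). Cluster 8 (167 cells) was agonist-signalled precursor-like (10 of 13), led by Ccl4 and Xcl1, with Foxp3 at 1.56 CPM and Il2ra at 159. Cluster 5 (810 cells) was mature Treg-like (9 of 11, Foxp3 175 and Il2ra 271 CPM), cluster 4 (689) mature CD4 single-positive-like, cluster 1 (479) immature CD4 single-positive-like, cluster 2 (639) interferon-responding-like and cluster 3 (385) proliferating-like. Cluster 5 also held B cell markers at a summed 828 CPM (3 of 4 measured higher) and plasma cell markers at 1784 CPM (5 of 7). Of its interferon-responding markers 6 of 12 were higher, and of its mature CD4 single-positive markers 5 of 10. Other lists also reached 3 markers elsewhere. Examples are mature CD4 single-positive in cluster 2 (4 of 10) and immature CD4 single-positive in cluster 8 (4 of 8). In cluster 3 they were double-positive thymocyte (5 of 9 measured) and gamma-delta T (4 of 5). Cluster 6 (313 cells) held effector, innate-like and myeloid markers together. In it 8 of 11 mature Treg markers (summed 2121 CPM) and 5 of 5 measured gamma-delta T markers were also higher. It was left unnamed, as were clusters 0 (836 cells, led by Colq, Arhgap20 and Eno3) and 9 (42 cells, median 1118 UMIs, plasma cell markers at 116091 CPM). These names rest on rebuilt clusters, and the borders of all 4 clusters followed through 4 other clusterings moved. The best match shared a fraction of 0.121 to 0.689 of the cells of either for cluster 7, 0.174 to 0.763 for cluster 8, 0.286 to 0.593 for cluster 5 and 0.253 to 0.787 for cluster 4.

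Tnfrsf4 was highest in clusters 7 and 8, which share agonist-signalled markers, at 1559 CPM (1504 to 1615) and 1519 (1452 to 1588), with overlapping intervals. It followed at 634 CPM in the mature Treg-like cluster 5, 558 in cluster 0 and 364 in cluster 6. Clusters 1, 4 and 2 overlapped at 210, 202 and 193 CPM, and the proliferating-like cluster 3 was lowest at 113, a 13.8-fold range. The cells of cluster 8 held a mean of 11.7 Tnfrsf4 UMIs, those of cluster 7 held 11.1, and those of cluster 4 held 0.878. Per cell, the deeper cells of cluster 3 were above cluster 4. They held 1.93 in the Foxp3eGFP mouse and 1.24 in the Lta-/- mouse, against 0.934 and 0.807. The 42 shallow cells of cluster 9 had 1441 CPM on 79 UMIs. This order depends on the clustering: the log2 ratio of cluster 7 over cluster 4 was 2.95, and with a looser cell filter the best-matching clusters differed by 0.41, under 1.5-fold.

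Tnfrsf18 had the same first and last clusters, but cluster 8 lay well under cluster 7. It had 791 CPM (753 to 832) in cluster 7, 567 (527 to 610) in cluster 8, 499 in cluster 5, 334 in cluster 0, 307 in cluster 6, 221 in cluster 4 and 97.6 in cluster 3. The intervals of clusters 0 and 6 overlapped, as did those of clusters 1 and 2 (170 and 166 CPM).

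Tnfrsf9 split the states another way. It reached 983 CPM (930 to 1039) in cluster 8, a mean of 7.56 UMIs per cell, then 463 (446 to 480) in cluster 0 and 362 (336 to 390) in cluster 7. The mature Treg-like cluster 5 held 68.8 CPM, close to 58.0 in cluster 3 and 55.9 in cluster 1, and cluster 2 was lowest at 33.6, so that the range was 29.2-fold. After thinning, a Tnfrsf9 UMI was found in 85.2% of the cells of cluster 8, 60.9% in cluster 0, 53.2% in cluster 7 and 16.5% in cluster 5. The cells of cluster 5 thus had little Tnfrsf9 beside high Foxp3 and Il2ra. Cluster 7, in which 9 of 11 mature Treg markers were also higher, had more Tnfrsf9 and also held Foxp3: 84 of its cells had both transcripts, 39 Foxp3 only, 78 Il2ra only and 77 neither. Nearly all cells of cluster 8 lacked Foxp3 UMIs: 96 were Il2ra only, 69 neither, 2 both and 0 Foxp3 only.

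Traf1 did not follow Tnfrsf9. It was highest in cluster 7 (177 CPM, 159 to 197) and cluster 6 (151, 134 to 170), which overlap, then in cluster 5 (112) and cluster 4 (79.2). Cluster 8, the Tnfrsf9-rich cluster, held 46.0 CPM (35.0 to 59.3), level with clusters 0 (46.9) and 2 (44.5). The log2 ratio of cluster 7 over cluster 8 was 1.95, but it was -0.014 between the best-matching clusters under a stricter cell filter. Cd27 varied the least, from 445 CPM in cluster 4 to 163 in cluster 3, a 2.72-fold range among clusters of over 100 cells.

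**Figure D3:**
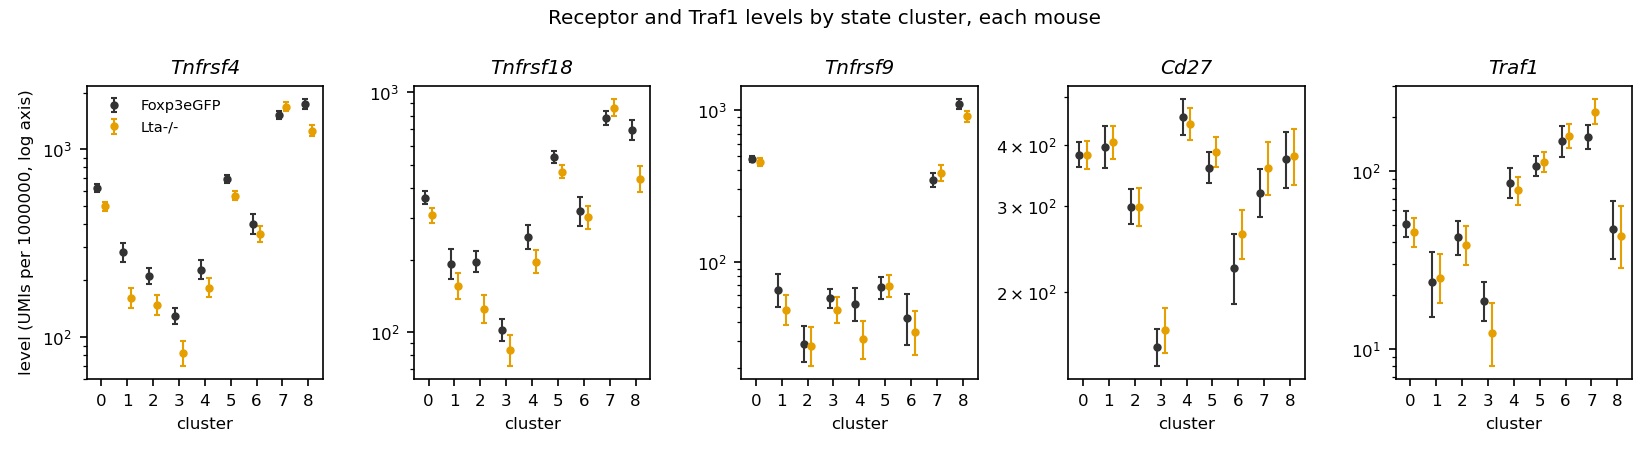
Level of each gene (CPM, log axis) in clusters 0 to 8, with 1 point per mouse and exact 95% intervals. Tnfrsf4 and Tnfrsf18 are high in clusters 7, 8 and 5, Tnfrsf9 in clusters 8, 0 and 7, and Traf1 in clusters 7 and 6.

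The link with Il2ra was also present within clusters. In each of the 8 clusters with enough Il2ra-detected cells, Tnfrsf4 was higher in cells with an Il2ra UMI than in cells without, by log2 ratios of 0.60 (cluster 5) to 2.01 (cluster 2, 629 against 156 CPM), and all 8 intervals lay above 0. In thinned cells it was higher in 8 of 8 as well. Tnfrsf18 was also higher in 8 of 8, by 0.18 to 1.92. In cluster 8 both receptors were higher with an Il2ra UMI (Tnfrsf4 1854 against 1040 CPM, Tnfrsf18 666 against 426), while Tnfrsf9 was at 1008 against 948 CPM with overlapping intervals. Over the 8 clusters the interval of Tnfrsf9 lay above 0 in 4, and its ratios ran from -0.27 to 1.42. The highest, in cluster 2, rests on 25 Tnfrsf9 UMIs in the cells with Il2ra. For Foxp3 UMIs, the interval lay above 0 in 5 of 7 clusters for Tnfrsf4, 6 for Tnfrsf18, 1 for Tnfrsf9 and 4 for Traf1, and below 0 in 1, 0, 2 and 0. Cluster 2 bounds the background for Tnfrsf9, and cluster 3 for Tnfrsf4, Tnfrsf18 and Traf1. The ratios of these genes in those clusters, counted above, are not read as expression.

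Single state genes divided the members in a like way. Ikzf2, which encodes the Treg factor Helios and was detected in 60.9% of cells, marked a large difference: Tnfrsf9 was at 278 CPM in cells with an Ikzf2 UMI and 35.2 without (log2 ratio 2.98, 2.83 to 3.13, and 2.63 in thinned cells). Tnfrsf4 stood at 640 against 170 CPM (1.91) and Tnfrsf18 at 397 against 145 (1.46). Nr4a1, an early gene of T cell receptor signalling, went with Tnfrsf9 (442 against 146 CPM, 1.60), Tnfrsf4 (1.31) and Tnfrsf18 (0.80). Other genes of that signal gave other ratios. With Egr1, also an early gene, Tnfrsf9 was at 140 against 198 CPM (-0.50), Tnfrsf4 at -0.25 and Tnfrsf18 at -0.29. With Egr3 the Tnfrsf9 ratio was 0.16 (-0.0097 to 0.32), and thinned -0.11 (-0.50 to 0.25). Traf1 was at 122 against 63.3 CPM (0.95), and Tnfrsf4 was at 0.43 (0.79 thinned) and Tnfrsf18 at 0.22 (0.69 thinned). Cd69, a surface sign of activation, gave 0.51 for Tnfrsf4 (0.62 thinned), 0.28 for Tnfrsf9 and 0.24 for Tnfrsf18. Bcl2l11, which encodes the pro-apoptotic protein BIM, went with Tnfrsf9 (330 against 134 CPM, 1.30) but hardly with Tnfrsf4 (0.27) or Tnfrsf18 (-0.019). Xcl1, a chemokine of strongly signalled thymocytes, likewise went with Tnfrsf9 (1.68, and 1.93 thinned) more than with Tnfrsf4 (0.67).

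Treg genes read in the same way did not all give 1 pattern. With Ctla4, an inhibitory receptor of Tregs, Tnfrsf4 and Tnfrsf18 were higher (0.78 and 0.80) and so was Traf1 (0.82), but Tnfrsf9 was lower (151 against 198 CPM, -0.38). Cells with Lrrc32, which encodes the TGF-beta docking receptor GARP, had more Tnfrsf4 (1.31), Tnfrsf18 (1.20) and Traf1 (0.93), and less of a difference in Tnfrsf9 (0.55, and 0.29 thinned). With Izumo1r, which encodes the folate receptor FR4, Tnfrsf4 was at -0.057 (0.17 thinned), Tnfrsf18 at 0.12 (0.34 thinned) and Tnfrsf9 was lower (145 against 244 CPM, -0.75). With Gpr83 the ratios were 0.16 for Tnfrsf4 (0.35 thinned), 0.25 for Tnfrsf18 (0.30 thinned), 0.0073 for Traf1 and -0.76 for Tnfrsf9. S1pr1, the receptor of thymic exit, went with lower Tnfrsf9 (109 against 272 CPM, -1.33) and nearly equal Tnfrsf18 (0.047). The IL-7 receptor gene Il7r went with lower Tnfrsf9 (68.3 against 282 CPM, -2.04), Tnfrsf4 (-1.20) and Tnfrsf18 (-0.93).

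All 5 genes were lower in cells with a UMI of Mki67, a gene of dividing cells, by log2 ratios of -1.06 for Cd27 to -1.79 for Tnfrsf4. Cluster 3, led by proliferation genes, had a median of 14097 UMIs per cell, and the thinned ratios were -0.94 for Cd27 and -1.70 for Tnfrsf4. Both kinds of ratio compare shares of a cell's UMIs, so a lower ratio need not mean fewer molecules per cell. Per cell, cluster 3 held a mean of 2.31 Cd27 UMIs in the Foxp3eGFP mouse and 2.53 in the Lta-/- mouse, and cluster 4 held 1.87 and 1.94. For Traf1 cluster 3 was lower, at 0.279 and 0.186 against 0.351 and 0.342. Cxcr3, a chemokine receptor of effector and recirculating cells, went with Traf1 (147 against 63.4 CPM, 1.22) and with low Tnfrsf9 (58.2 against 193, -1.73). With Isg15, an interferon-induced gene found in 48.9% of cells, the 5 ratios lay between -0.26 and 0.057.

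The genes whose levels over clusters and mice were most like each member were taken from 6071 genes by the correlation of log2 CPM over 18 cluster-by-mouse groups, which share 1 capture and are given as a description. For Tnfrsf4 they were Tnfrsf18 (Pearson r = 0.96), Nfkbia (0.96), Nfkb1 (0.95), Swap70 (0.94) and Rel (0.94), and for Tnfrsf18 they were Tnfrsf4, Samsn1 (0.96), Nfkbia (0.94), Swap70 (0.91) and Ahcyl2 (0.90). Of these, Nfkbia, Nfkb1 and Rel belong to the NF-kB system. Nfkbia had 896 CPM in cluster 7, 732 in cluster 8 and 395 in cluster 5, and Rel had 420, 422 and 207. Tnfrsf9 was closest to Lrmp (0.98), Tspan13 (0.96), Larp4 (0.96), Edf1 (0.96) and Serp1 (0.95), and Traf1 to Hopx (0.92), Ptpn22 (0.90), Gimap5 (0.87), Sh3bp5 (0.87) and Nfkbiz (0.87). Among the members, r was 0.81 between Tnfrsf4 and Tnfrsf9 and 0.096 between Tnfrsf9 and Traf1.

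Detection in the same cell was compared in cells thinned to 3000 UMIs, for the 10 pairs of genes. Tnfrsf18 was detected in 65.7% (63.7 to 67.7) of 2203 cells with a Tnfrsf4 UMI and in 34.8% (32.8 to 36.8) of 2122 cells without. Tnfrsf9 was detected in 36.7% (34.7 to 38.8) of cells with Tnfrsf4 and in 13.9% (12.5 to 15.5) of cells without, and in 32.2% of cells with Tnfrsf18 against 18.7% without. Cells with a UMI of any of these receptors thus held another of them more often than cells without. Traf1 was found in 22.0% of cells with Tnfrsf4 against 14.5% without, but in 18.3% (16.0 to 20.7) of cells with Tnfrsf9 and 18.4% (17.0 to 19.7) without. Cd27 differed by at most 2.99 percentage points when split by any of the 3 receptors, for example 63.8% against 60.8% by Tnfrsf18.

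Within clusters, the differences of Tnfrsf18 and Tnfrsf9 by Tnfrsf4 kept their direction in most cases but were smaller. The mean was 20.5 percentage points for Tnfrsf18 by Tnfrsf4, against 30.9 over all cells, and 10.2 for Tnfrsf9 by Tnfrsf4, against 22.8. The share with Tnfrsf18 was higher in cells with Tnfrsf4 in 9 of 9 clusters, and the intervals lay apart in 8. In cluster 8 it was 73.1% against 35.7%, in cluster 1 it was 51.8% against 23.5%, and in cluster 5 it was 74.9% against 60.3%. Tnfrsf9 was higher with Tnfrsf4 in 8 of 9 clusters, with intervals apart in 6, and by smaller steps, such as 66.0% against 51.6% in cluster 0. In cluster 8 it was 85.1% against 85.7% (67.3 to 96.0), the latter in 28 cells, so a difference was not detectable there. The share with Tnfrsf9 was higher with Tnfrsf18 in 9 of 9 clusters, but the intervals lay apart in 0. For the other pairs the direction was less even. Traf1 was higher with Tnfrsf4 in 7 of 9 clusters, with intervals apart in 1. With Tnfrsf18 it was higher in 4 of 9 and with Tnfrsf9 in 3 of 9, and Cd27 was higher with Tnfrsf4 in 2 of 9. These counts include cluster 2, which bounds the background for Tnfrsf9, and cluster 3, which bounds it for Tnfrsf4, Tnfrsf18, Cd27 and Traf1.

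**Figure D4:**
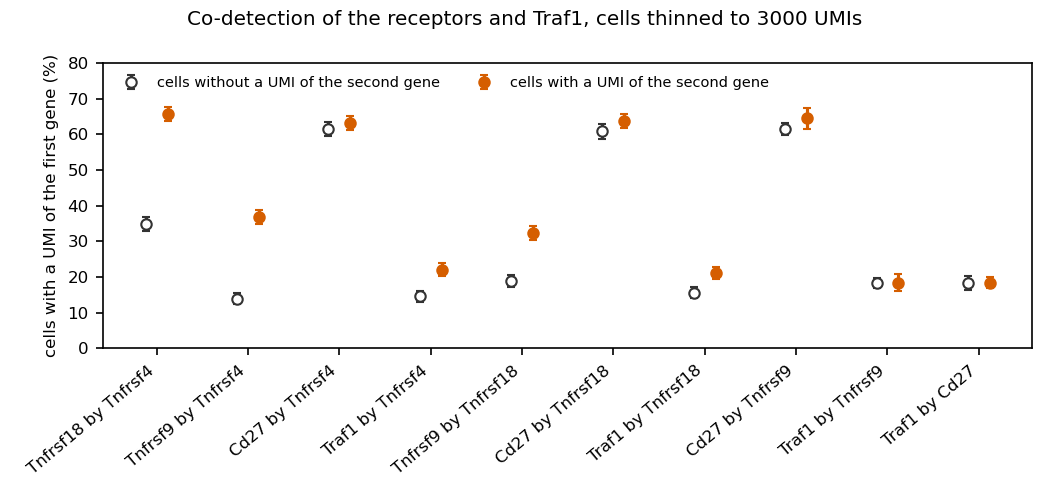
Share of thinned cells (percent) with a UMI of 1 gene among cells with and without a UMI of another, with exact 95% intervals. The gap is widest for Tnfrsf18 by Tnfrsf4 (65.7% against 34.8%), and the points nearly coincide for Traf1 by Tnfrsf9.

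UMIs of OX40, GITR and 4-1BB transcripts were found together in 571 of 4325 thinned cells (13.2%, 12.2 to 14.2), where the product of the 3 single shares is 6.58%. That product is over all cells pooled and takes no account of clusters in which the 3 genes are high together. The share was 28.5% in Il2ra only cells, 18.3% with both transcripts, 11.5% with Foxp3 only and 9.62% with neither. By state it was 52.5% (44.5 to 60.4) in cluster 8, 43.9% in cluster 7, 27.4% in cluster 0, 10.2% in cluster 5 and 1.57% in cluster 3. None of the 3 receptors was detected in 28.2% of cells, from 1.49% in cluster 7 to 58.8% in cluster 3.

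The other genes of the pathway were counted in the same classes. Of the ligands, Tnfsf4 (OX40 ligand) had 66 UMIs in all cells, Tnfsf9 (4-1BB ligand) 46, Cd70 (the CD27 ligand) 2 and Tnfsf18 (GITR ligand) 0 of 31129765, so that ligand transcripts were rare in these sorted cells. Among 18 NF-kB genes, 9 were higher in Il2ra only cells than in cells with neither, where 6.14% of all genes were, and 0 were lower (8.33% of all genes), with a median log2 ratio of 0.62. They included Tnfaip3 (1.77), which encodes the feedback inhibitor A20, Nfkbid (1.45), Rel (1.26), Nfkb2 (1.16) and Nfkbia (0.94). Of 8 survival genes, 4 were higher (Bcl2l1 1.59, Bcl2a1d 1.58, Bcl2a1b 1.56 and the pro-apoptotic Bcl2l11 0.77) and Birc5, also a gene of dividing cells, was lower (-1.03). Of 14 adaptor genes, 2 were higher (Traf6 and Birc3). Among 17 other TNF receptors, 8 had enough UMIs, and of these Tnfrsf25 (1.12) and Tnfrsf1b (0.60) were higher and 3 lower.

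Compared with cells holding both transcripts, Foxp3 only cells had 3 of 18 NF-kB genes lower (Rel, Nfkbid and Nfkbiz) and 4 of 8 survival genes lower (Bcl2, Bcl2l1, Bcl2a1b and Bcl2a1d), with 0 higher in either list, where 3.82% of all genes were lower and 3.68% higher. Il2ra only cells had 3 NF-kB genes higher and 1 lower, and 5 survival genes higher and 1 lower (Bcl2), beside 9.66% and 4.88% of all genes. The NF-kB counts of Il2ra only over both are thus not far from the shares over all genes. The median log2 ratios of the NF-kB list were -0.23 and 0.014 in these comparisons, beside 0.026 and 0.037 over all genes.

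By genotype, the 3 receptors were modestly lower in the Lta-/- cells and none of the 5 genes reached 1.5-fold. The comparison sets the pooled cells of 1 mouse against those of another, so the difference between any 2 mice and an effect of Lta cannot be told apart. Tnfrsf4 was at 511 CPM (499 to 522) in the Foxp3eGFP mouse and 411 (401 to 422) in the Lta-/- mouse, a log2 ratio of -0.31 (-0.36 to -0.26). Tnfrsf18 was at 327 and 279 CPM (-0.23, -0.29 to -0.17) and Tnfrsf9 at 202 and 172 (-0.23, -0.30 to -0.15). Cd27 was at 313 and 339 CPM (0.12, 0.059 to 0.18) and Traf1 at 62.5 and 68.4 (0.13, with an interval from -0.0014 to 0.26). Of the 5 genes, 0 were higher and 0 lower by 1.5-fold, where 2.41% of 10709 genes were higher and 2.83% lower. The 3 receptors together were found in 14.9% of thinned Foxp3eGFP cells and 11.5% of Lta-/- cells.

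The genotype ratios varied over classes and states, and the differences between these ratios were not tested. In Il2ra only cells, Tnfrsf4 was at 1065 against 1091 CPM (-0.034, -0.12 to 0.054) and Tnfrsf18 at 568 against 564 (0.0082). In cells with neither transcript, Tnfrsf4 was at 245 against 309 CPM (-0.33, -0.41 to -0.25) and Tnfrsf18 at 184 against 222 (-0.27). By cluster, Tnfrsf4 was lower in the Lta-/- cells in 8 of 10, with 7 intervals below 0 and 2 above (cluster 7 and the shallow cluster 9), and Tnfrsf18 in 8 of 9, with 7 below 0. Cluster 3, which bounds the background for both genes, is counted among those below 0. The lowest Tnfrsf4 ratio was in the immature CD4 single-positive-like cluster 1, at 162 against 283 CPM (-0.80). In cluster 8 Tnfrsf18 was at 437 against 696 CPM (-0.67) and Tnfrsf4 at 1259 against 1741. Cluster 7 ran the other way, with Tnfrsf4 at 1689 against 1529 CPM (0.14) and Traf1 at 216 against 156 (0.47, 0.14 to 0.80).

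**Figure D5:**
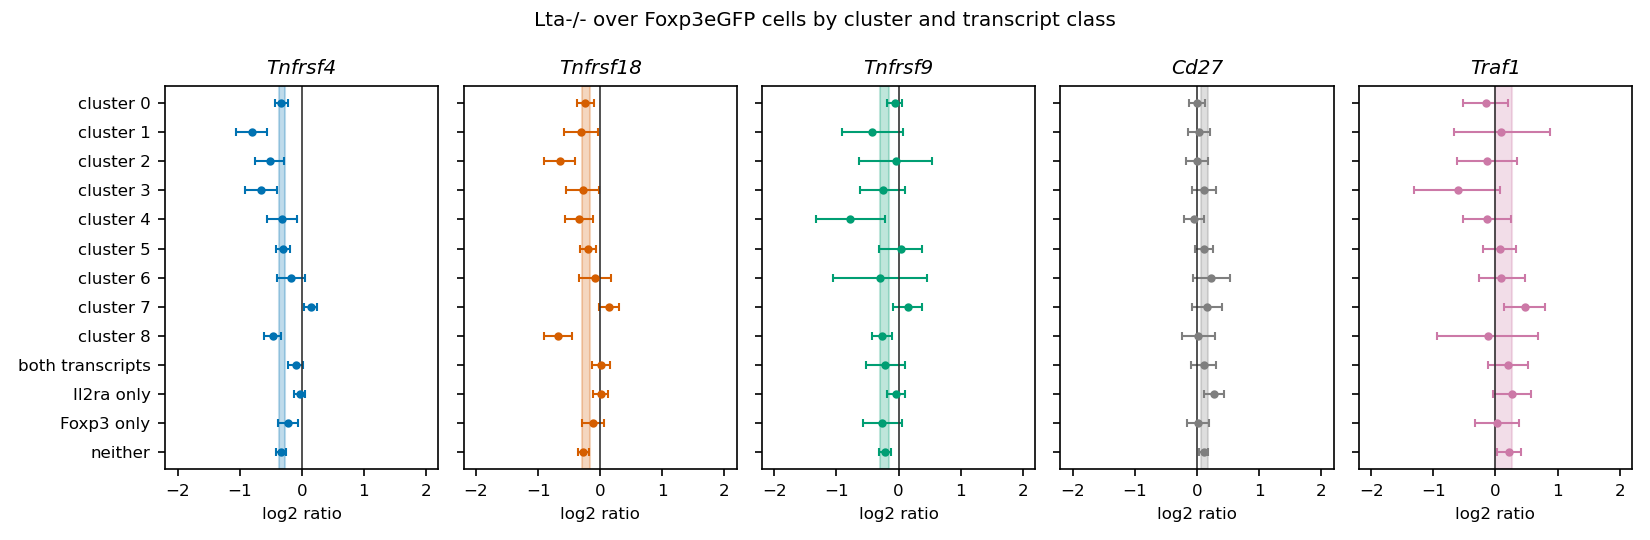
Log2 ratio of Lta-/- over Foxp3eGFP for each gene in clusters 0 to 8 and in the 4 classes, with exact 95% intervals, and a band for the interval over all cells. Tnfrsf4 lies below 0 in most clusters and slightly above it in cluster 7 (0.14). Cd27 lies between -0.048 and 0.23 in these clusters and at 0.28 (0.12 to 0.44) in Il2ra only cells.

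Cell makeup differed between the mice. The Lta-/- mouse gave 295 of the cells in cluster 1 and 140 in cluster 3, the Foxp3eGFP mouse 177 and 226. Summed proliferation markers were at 1933 CPM in the Lta-/- cells against 2917, with 7 of 12 lower. Plasma cell markers were at 131 against 1014, with 5 of 7 measured lower and 0 higher. B cell markers were at 25.9 against 255, but of 4 measured 1 was higher and 1 lower. Myeloid or dendritic markers were at 269 against 277, with 3 of 6 measured higher and 1 lower. Interferon-responding markers were at 1398 against 1948 CPM, with 7 of 12 lower, and gamma-delta T markers at 39.1 against 79.1, with 3 of 5 measured lower. Of 9 measured double-positive thymocyte markers, 5 were lower (199 against 231 CPM), and of 12 measured effector or recirculating Treg markers, 4 were higher (832 against 705 CPM). Over all genes, 2.83% were lower and 2.41% higher by the same fold. The part of these markers in the member ratios was not tested. Without clusters 3 and 6, the log2 ratio was -0.40 for Tnfrsf4 and -0.33 for Tnfrsf18. Clusters 5 and 9, which held the highest summed B cell and plasma cell markers, were not left out.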

How the data were processed

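Hashtagged thymocytes of 2 mice went into 1 capture of droplet 3' RNA sequencing (10x Genomics v3.1, as the labels' protocols state). The authors deposited raw UMI counts for each gene in each barcode, with no normalization. The submitters' processing notes name Cell Ranger 6.0.1 and the build mm10 (GRCm38). The annotation release, the strand setting and the authors' cell calling were not given in the sources used here. Columns of per-sample values left unused numbered 0. The 5 genes, the lists and the comparisons were chosen with earlier results of these data known.

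A barcode was kept if it had 500 genes or more and a mitochondrial share of UMIs of 10% or less (4638 of 4798). Assignment to a mouse needed 10 or more counts of its hashtag and 80% or more of the cell's hashtag total. Antibody numbers in the hashtag feature names do not match those in the labels' protocols, and the genotype direction follows the feature names. No doublet caller was used. Cells with both hashtags stayed in the class and cluster comparisons and out of the genotype comparison, and doublets within 1 mouse could not be found.

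Raw UMIs were summed per group and scaled to 1000000 (CPM). Intervals were exact Poisson for levels, Clopper-Pearson for shares and conditional binomial for ratios, at 95%. Cells were thinned to 3000 UMIs for shares. Leiden clusters (resolution 0.6) came from 2000 variable genes, 30 principal components and 15 neighbours of counts scaled to 10000 per cell and log-transformed, leaving out the 5 genes, Foxp3, Il2ra, Lta, Ltb, V(D)J segments and sex-linked genes. A cluster was named from its marker list if 3 or more of its markers were 1.5-fold higher or more. Named genes were the 5 members, members of the 5 pathway lists, the 25 state genes and, for each member, the 5 genes with the highest correlation of log2(CPM + 10) among genes with at least 500 UMIs over cluster-by-mouse groups of at least 50 cells. Cluster leading genes were the 10 highest by fold, and other genes named with their UMIs (Sdf4, Gm16008, the sort genes) were chosen after their values were seen. The calculations were tested on simulated data. Software was scanpy 1.11.5, igraph 0.11.9, pandas 2.3.3, scipy 1.17.1, scikit-learn 1.9.0, numpy 2.4.6 and matplotlib 3.10.9 in Python 3.11.15.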

Additional observations from a re-analysis of the deposited data

Results flagged for a closer look

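Several member ratios pointed in opposite directions in different clusters, with intervals on either side of 0 in the full counts. In cells thinned to 1 depth most of the intervals within clusters included 0. The differences between clusters were not tested, and the clusters come from 1 capture.

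Cd27 in cells with an Il2ra UMI over cells without had a log2 ratio of 0.38 in the proliferating-like cluster 3 and of -0.43 in the precursor-like cluster 8. Thinned, it was 0.18 (-0.45 to 0.76) and -0.46 (-0.90 to -0.0095). For Traf1 the same ratio was 0.94 in cluster 2 and -0.85 in cluster 4, and thinned 0.47 (-0.90 to 1.60) and -0.76 (-2.00 to 0.26). Tnfrsf4 in cells with a Foxp3 UMI over cells without was at 1.39 in cluster 3 and -0.13 in cluster 7, and thinned at 1.00 (0.17 to 1.74) and -0.096 (-0.26 to 0.068). Tnfrsf9 by Foxp3 UMIs was at 1.51 in cluster 2 and at -0.72 in cluster 0, and thinned at 1.19 (-0.098 to 2.27) and -0.71 (-1.05 to -0.39). In cluster 2 it rests on 23 UMIs in the cells with Foxp3, and the Tnfrsf9 share there is the one that bounds the background, so it is not read as expression. Cluster 3 bounds the background for Cd27 and Tnfrsf4, so the ratios of these genes there are not read as expression either. Tnfrsf4 in Lta-/- over Foxp3eGFP cells was at 0.14 in cluster 7 and -0.80 in cluster 1.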

How the results depend on the processing

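No paired analysis was possible because each genotype is 1 mouse and no group has replicates. Of 364 values recomputed under other settings, 270 were labelled as the same, 92 as moved and 2 as reversed. A change of sign was labelled as reversed only for ratios past 1.5-fold or, for co-detection, differences with an interval off 0. Other changes of sign are among the values labelled as the same or moved, such as Tnfrsf18 by genotype in Il2ra only cells (0.0082). The number of members past 1.5-fold was unchanged at 1 for Il2ra only over both, 3 for neither over both and 0 for Lta-/- over Foxp3eGFP under the alternatives run. For Foxp3 only over both it was 1 instead of 2 when 2 UMIs were needed for a class and with Foxp3eGFP cells only. Cluster contrasts depended on the clustering. Tnfrsf4 in cluster 7 over 4 (log2 ratio 2.95) was 2.70 at resolution 1.0, 2.63 with 20 principal components, 0.41 with a looser cell filter (at least 200 genes), 2.12 with a stricter one (at least 1000 genes), 2.74 in Foxp3eGFP cells and 3.20 in Lta-/- cells. Tnfrsf9 in cluster 8 over 5 (3.84) was 1.86 with 20 principal components and 2.32 with the looser filter, and Traf1 in cluster 7 over 8 turned to -0.014 with the stricter filter. The cause was not tested. The co-detection difference of Tnfrsf18 by Tnfrsf4 (30.9 percentage points) was 35.8 without thinning, 37.7 at 5000 UMIs and 20.5 as the mean within clusters. That of Tnfrsf9 by Tnfrsf4 (22.8) was 29.0 without thinning, 18.1 at 2000 UMIs, 28.4 at 5000, 15.9 with 2 UMIs for detection and 10.2 within clusters. That of Traf1 by Tnfrsf18 (5.38) turned to -0.65 within clusters.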
